A study of Mus musculus with 6 samples.

Results

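Described here are 5 S100a genes (S100a4, S100a6, S100a10, S100a11 and S100a13) and 5 annexin genes (Anxa1, Anxa2, Anxa4, Anxa5 and Anxa6), 10 of the 25655 gene identifiers in the deposited tables. They were taken by symbol from a list, and the list was drawn up with their levels in the 2 genotypes already known. Their difference between genotypes is therefore given as a description, and nothing is supported with it. All 10 were among the 10590 genes that were tested, which reached 1 CPM (reads of a gene scaled to an equal library total) in no fewer than 3 libraries, but Anxa1 reached it in WT libraries only.

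S100 proteins are small dimeric proteins with paired EF-hand loops. Calcium binding opens a surface with which they grip target proteins such as myosin heavy chains and annexins. Annexins bind acidic membrane phospholipids when calcium rises, and take part in membrane repair, vesicle traffic and the link between membrane and actin. S100a10 is the partner of annexin A2 in a complex that does not need calcium to form, and S100a11 binds annexin A1. Several of these RNAs, S100a4, S100a6, S100a10 and Anxa2 among them, are known to be more abundant in effector and memory T cells than in naive ones.

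RNA was taken from cultured CD8 T cells, prepared from spleens of female mice on the C57BL/6 strain that were Utx knockout (Utx KO, 3 libraries) or WT (3 libraries). Utx, encoded by Kdm6a, is a histone demethylase that removes the Polycomb-associated methyl mark. Cells of both genotypes were isolated as naive (CD44 low, CD62L high), stimulated for 2 days with immobilized antibody against TCR-beta at 3 µg/ml, antibody against CD28 at 1 µg/ml and 10 ng/ml of interleukin 2, then kept for 3 days in interleukin 2, and expression was compared at day 5. The labels call the libraries biological replicates without saying whether they are separate animals, so every p measures the spread between these samples only. The sources used here give neither the deleted part of Utx nor the Cre or promoter, if any, behind the deletion.

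The libraries held 1619085 to 2529113 recovered reads, and 3 reads, the most that a count of 0 allows, correspond to 1.19 to 1.85 CPM (counting error only). Kdm6a was at 27.8, 39.4 and 31.5 CPM in Utx KO against 44.3, 49.3 and 53.6 CPM in WT, without overlap (log2 fold change −0.57, limma adjusted p = 0.0123, and 0.00560 to 0.0708 over the alternatives; not past 0.05 with DESeq2 or without Utx KO replicate 1, WT replicate 2 or WT replicate 3). A 3' tag outside the deleted part checks nothing, and which part was deleted is unknown. The 8 T-cell markers summed to 2958 to 3002 CPM in Utx KO and 2899 to 3021 CPM in WT, with 3 of them called higher and 2 lower by limma, of which Cd3e and Cd8b1 were not called under every alternative. Cd3d averaged 671 CPM in Utx KO and 544 CPM in WT. Cd8a, which was not called, averaged 292 CPM in Utx KO and 257 CPM in WT. Thy1 was called lower, at 563 CPM in Utx KO and 745 CPM in WT. Cd2 was also called lower, at 338 CPM in Utx KO and 417 CPM in WT, and both calls held in all 15 alternatives. Of the 2 CD4 T-cell markers, Cd4 was listed at 0 in every library. Foxp3 was at 7.31 ± 0.618 CPM in Utx KO and 9.35 ± 1.71 CPM in WT (SD, n = 3 each), and was not called. All 7 neutrophil markers were listed at 0 in every library, among them S100a8 and S100a9, as were Lyz2, Itgam, Adgre1 and Cd14 of monocytes and macrophages. The 6 monocyte and macrophage markers summed to 7.55 to 12.4 CPM in Utx KO and 6.72 to 8.29 CPM in WT, made up of Cd68 and Csf1r. The 5 fibroblast markers together reached at most 1.85 CPM in Utx KO and 1.84 CPM in WT, and the 3 NK-cell markers 1.85 CPM in Utx KO and 1.09 CPM in WT. Erythroid markers summed to 1.19 to 3.09 CPM in Utx KO and 0 in WT, with Hbb-bs and Alas2 at 0. Among 5 dendritic-cell markers H2-Ab1 was higher, at 98.9 ± 6.99 CPM in Utx KO and 77.7 ± 9.57 CPM in WT (SD, n = 3 each), with Flt3 and Siglech at 0 (limma adjusted p = 0.0357, and 0.0287 to 0.235 over the alternatives; not past 0.05 with DESeq2 or without Utx KO replicate 1, Utx KO replicate 3, WT replicate 1 or WT replicate 2). B-cell markers summed to 0.571 to 1.85 CPM in Utx KO and 2.76 to 5.47 CPM in WT, almost all of it Cd79b, with Cd79a, Ms4a1 and Pax5 at 0. The part of cells carrying H2-Ab1, Cd79b, Foxp3 or erythroid transcripts in the results was not tested. In bulk RNA, fewer cells of a type and less RNA per cell cannot be told apart.

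Most of the S100a transcripts were scarcer in Utx KO cells, S100a4 far more than the rest, while S100a13 was more abundant and Anxa2, the most abundant annexin, was at nearly the same level in both genotypes. Of the 10 genes, 6 were lower and 1 was higher in Utx KO by limma at an adjusted p under 0.05, where 10.8% of all 10590 genes passed in either direction (5.51% lower and 5.28% higher). The groups did not overlap for 7 of the 10, against 26.5% of all genes tested. Both counts include Anxa1, which entered the test only through WT libraries. With a filter of 5 CPM, which left Anxa1 untested, 5 of 9 were called lower and 1 higher, beside 1087 of all 8832 genes called. Since the genes were chosen from this same contrast, these counts carry no test. The median log2 fold change (Utx KO minus WT, on the log2(CPM + 1) scale, which understates the change of low genes) was −0.49 for the 5 S100a genes, −0.03 for the 5 annexin genes and 0.01 for all genes tested.

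**Figure D1:**
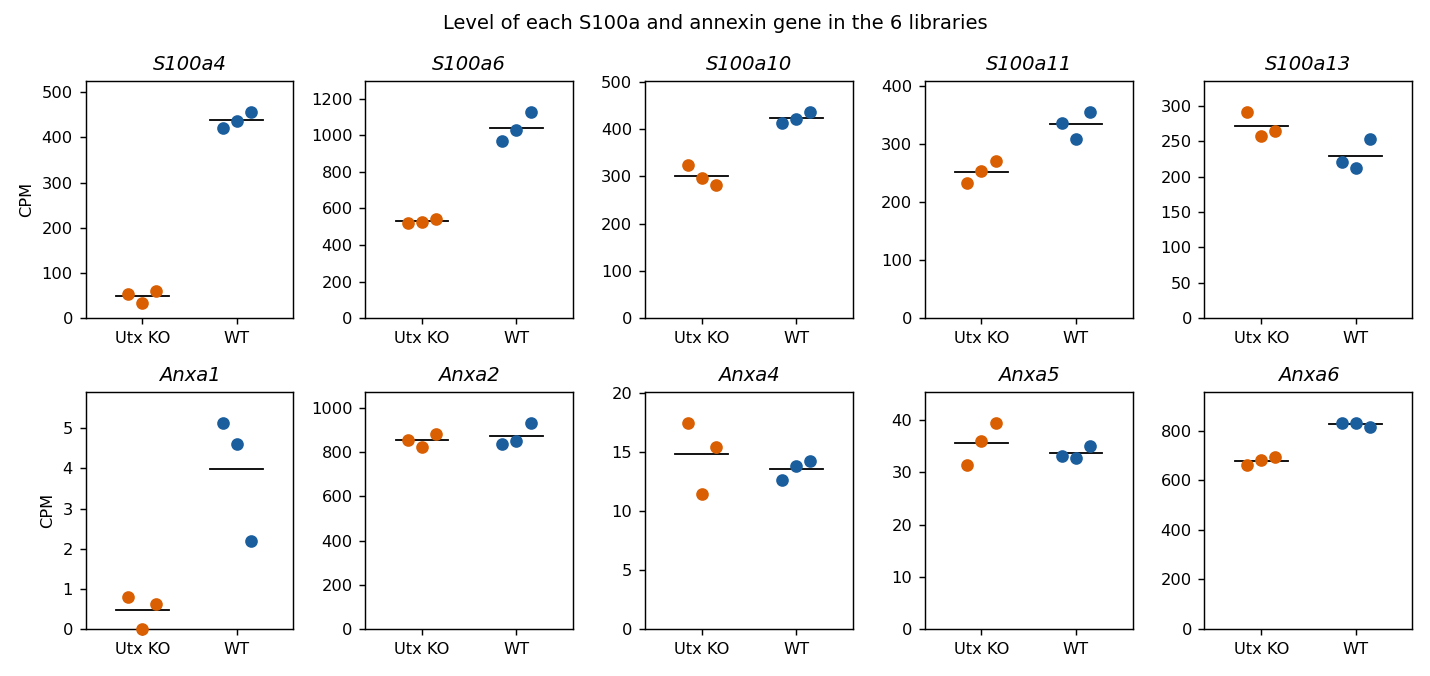
Level of each gene in CPM (vertical axes, from 0) in the 3 Utx KO libraries (orange, left) and the 3 WT libraries (blue, right), with the mean of each genotype as a line. S100a4 lies at 34.3 to 61.1 CPM in Utx KO and 420.3 to 456 CPM in WT, S100a13 is higher in Utx KO, and Anxa2, Anxa4 and Anxa5 overlap.

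Because a transcript yields about 1 tag whatever its length, CPM levels of different genes are set side by side without scaling by length. The 5 S100a genes together made up 1423, 1366 and 1422 CPM in Utx KO replicates 1, 2 and 3, against 2362, 2406 and 2628 CPM in WT replicates 1, 2 and 3. The sum in Utx KO was 0.57 times that in WT. S100a4 supplied 3.53 ± 0.923% of this sum in Utx KO and 17.8 ± 0.388% in WT (SD, n = 3 each), and S100a13 supplied 19.3 ± 1.01% in Utx KO and 9.25 ± 0.409% in WT. S100a6 was the most abundant of the 5 in all 6 libraries, with 37.7 ± 1.01% of the sum in Utx KO and 42.2 ± 0.983% in WT. The 5 annexins summed to 1568, 1551 and 1633 CPM in Utx KO against 1720.4, 1735 and 1802 CPM in WT. Anxa2 and Anxa6 made up nearly all of the annexin sum in both genotypes, 53.9 ± 0.799% and 42.9 ± 0.911% in Utx KO and 49.9 ± 1.69% and 47.2 ± 1.63% in WT. Counted S100a tags were fewer than annexin tags in each Utx KO library, at 0.887 ± 0.0190 per annexin tag, and more in each WT library, at 1.41 ± 0.0460. Parts of the S100a4 and S100a11 transcript ends also occur in other gene models, and how such reads were counted is unknown. Which of the 2 families had more transcripts is therefore not settled by these ratios.

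**Figure D2:**
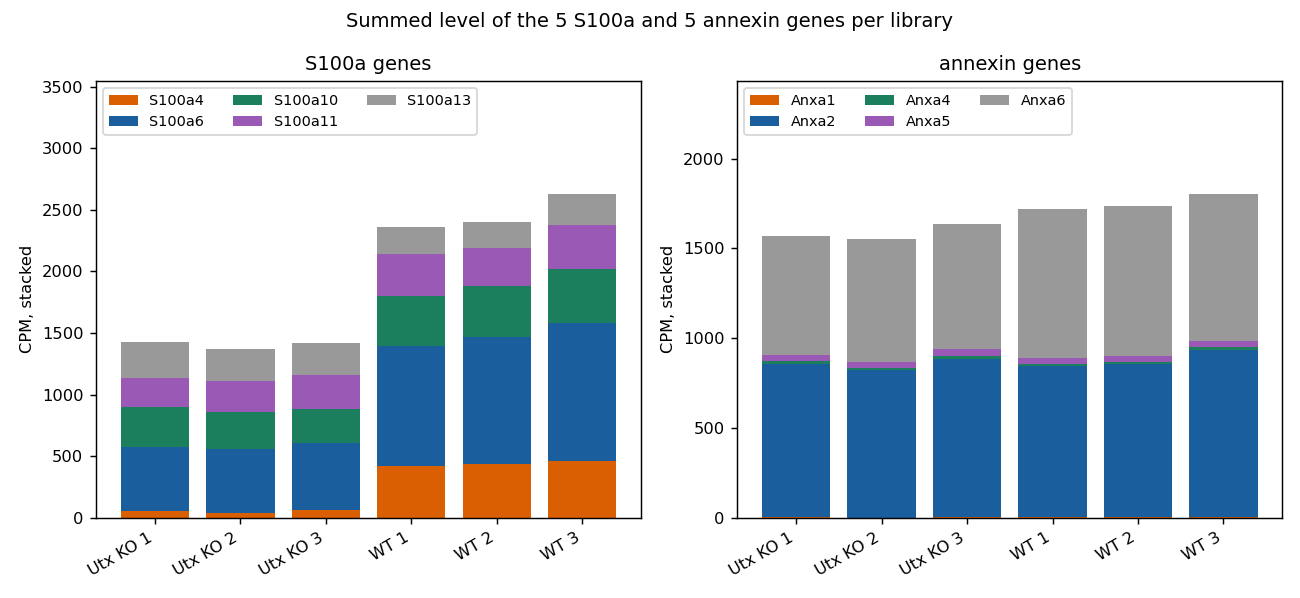
Stacked CPM of the 5 S100a genes (left) and the 5 annexin genes (right) in each library, Utx KO first. The S100a columns are lower in all 3 Utx KO libraries (1366 to 1423 CPM) than in all 3 WT libraries (2362 to 2628 CPM), and the S100a4 layer at the bottom is 34.3 to 61.1 CPM thick in Utx KO and 420.3 to 456 CPM in WT. The annexin columns stand at 1551 to 1633 CPM in Utx KO and 1720.4 to 1802 CPM in WT.

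S100a4 and S100a6 lie close together on chromosome 3 and had the largest differences among the S100a genes. Between them lies S100a5, which had too few reads to be tested. S100a4 (ENSMUSG00000001020, chromosome 3, 90603771 to 90606045 in GRCm38, plus strand), whose protein binds non-muscle myosin heavy chain and is tied to cell motility, was at 54.0, 34.3 and 61.1 CPM in Utx KO against 420.3, 436 and 456 CPM in WT. All 3 Utx KO libraries lay far below all 3 WT libraries, a WT level 8.79-fold that of Utx KO (log2 fold change −3.15, SE 0.13). Of the 50-nt pieces from the last 300 nt of its protein-coding transcripts, 54.6% also occur in an overlapping gene model on the same strand, Gm42674, which was listed at 0 in all 6 libraries. How reads common to both were counted is unknown.

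S100a6 (ENSMUSG00000001025, chromosome 3, 90612882 to 90624181, plus strand), the binding partner of the ubiquitin-pathway protein Cacybp, begins 6.84 kb downstream of the end of S100a4. It was at 520.3, 524 and 544 CPM in Utx KO against 971, 1028 and 1128 CPM in WT. The Utx KO libraries lay close together and all below the lowest WT library, with a WT level 1.97-fold that of Utx KO (log2 fold change −0.97, SE 0.05). None of its 3' end pieces occurred in another gene. The ratio of S100a4 to S100a6 transcripts was 0.0938 ± 0.0250 in Utx KO and 0.421 ± 0.0145 in WT (SD, n = 3 each). The difference between genotypes was thus unequal between S100a4 and S100a6.

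S100a13 (ENSMUSG00000042312, chromosome 3, 90514435 to 90524581, plus strand), a cofactor in the release of proteins that lack a signal peptide, such as fibroblast growth factor and interleukin 1 alpha, ends 79.2 kb upstream of S100a4. It was higher in Utx KO, at 291, 257 and 265 CPM in Utx KO against 220.2, 212 and 253 CPM in WT. The lowest Utx KO library stood only just above the highest WT library (log2 fold change 0.25, SE 0.08). It was past the threshold with limma and edgeR, but not with DESeq2 nor without Utx KO replicate 1, Utx KO replicate 3, WT replicate 1 or WT replicate 2 (log2 fold changes of 0.20 to 0.26). The S100a13 to S100a6 ratio was 0.512 ± 0.0410 in Utx KO and 0.219 ± 0.0112 in WT (SD, n = 3 each).

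The start regions of these 3 genes are shown because they lie in 1 cluster and their transcripts differed between genotypes to unequal extents and in both directions. Each runs 5′ to 3′ on the plus strand from 250 bases before to 50 bases after the RefSeq gene start (GRCm38.p6): S100a4 at chr3:90603520-90603819, S100a6 at chr3:90612644-90612943 and S100a13 at chr3:90514185-90514484. Capitals mark matches, on either strand, to any of 5 motifs searched. These were the AP-1 motif TGANTCA, which reads nearly alike on both strands, and the GC box GGGCGG. The others were the TATA motif written TATAAA, the CCAAT box, and the RUNX motif TGTGGT.
S100a4: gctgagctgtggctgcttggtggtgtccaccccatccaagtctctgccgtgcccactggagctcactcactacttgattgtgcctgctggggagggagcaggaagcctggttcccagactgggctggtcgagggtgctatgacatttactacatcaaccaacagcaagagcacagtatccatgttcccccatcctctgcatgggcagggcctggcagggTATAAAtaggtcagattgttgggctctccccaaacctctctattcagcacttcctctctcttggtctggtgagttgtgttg
S100a6: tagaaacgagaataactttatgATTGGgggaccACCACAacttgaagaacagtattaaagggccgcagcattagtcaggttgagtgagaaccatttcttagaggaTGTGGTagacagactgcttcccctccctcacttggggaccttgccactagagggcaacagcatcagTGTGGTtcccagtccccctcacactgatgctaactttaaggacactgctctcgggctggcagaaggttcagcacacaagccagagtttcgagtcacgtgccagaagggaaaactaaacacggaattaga
S100a13: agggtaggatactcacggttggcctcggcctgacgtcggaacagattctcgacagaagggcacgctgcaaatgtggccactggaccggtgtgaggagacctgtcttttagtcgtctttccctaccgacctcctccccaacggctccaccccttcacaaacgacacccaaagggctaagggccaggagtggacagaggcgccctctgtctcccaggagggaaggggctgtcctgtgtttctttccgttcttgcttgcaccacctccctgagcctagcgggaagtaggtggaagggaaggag

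The S100a4 window held a TATAAA match 31 bases before the start and no other match; 13.6% of the 32851 windows in the table hold one. It is also poor in CpG, with 2 in 300 bases, an observed-to-expected ratio of 0.0871 that exceeds 11.5% of all windows. The S100a6 window held 3 RUNX matches, a motif found in 16.8% of all windows, and 1 CCAAT match, found in 37.4%, with 6 CpG and a ratio of 0.329. The S100a13 window had none of the 5 motifs and 14 CpG, a ratio of 0.53. Its window also takes in the start of S100a1, which runs the other way from a point 42 bases upstream of S100a13. Of the other members, windows were found for S100a11, Anxa1, Anxa2, Anxa4 and Anxa5, making 8 genes and 9 windows in all. TATAAA matches were also in the windows of Anxa1 and Anxa2. AP-1 matches were in those of S100a11 and Anxa2 (7.81% of all windows) and GC boxes in those of S100a11, Anxa2 and Anxa4 (35.7%). These are matches of letters and show no binding.

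Few other genes in or beside this S100a cluster were tested, and none of them passed the threshold. Within 250 kb of S100a4, S100a6 or S100a13 lay 9 other S100a genes, of which S100a1 alone was tested, and 11 protein-coding genes outside both families. Of these 11, 6 were tested (Chtop, Snapin, Ilf2, Ints3, Gatad2b and Dennd4b) and 0 passed with limma, edgeR or DESeq2. An unadjusted limma p under 0.05 was found for 1 of the 6. Over all 10590 genes tested, limma called 10.8%, and 2408 had an unadjusted limma p under 0.05. With so few genes tested, 0 calls is near that share. The log2 fold changes of the 6 ran from 0.01 to 0.29, all fitted higher in Utx KO, and the lowest limma adjusted p was 0.175. Chtop, which encodes a chromatin target of arginine methylation and lies 4.94 kb upstream of S100a13, was at 206 ± 17.3 CPM in Utx KO and 182 ± 13.5 CPM in WT (SD, n = 3 each). S100a1, the S100 gene head to head with S100a13, was at 23.8, 20.0 and 26.6 CPM in Utx KO against 15.03, 14.3 and 27.4 CPM in WT, with overlapping groups (log2 fold change 0.35, limma adjusted p = 0.379).

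**Figure D3:**
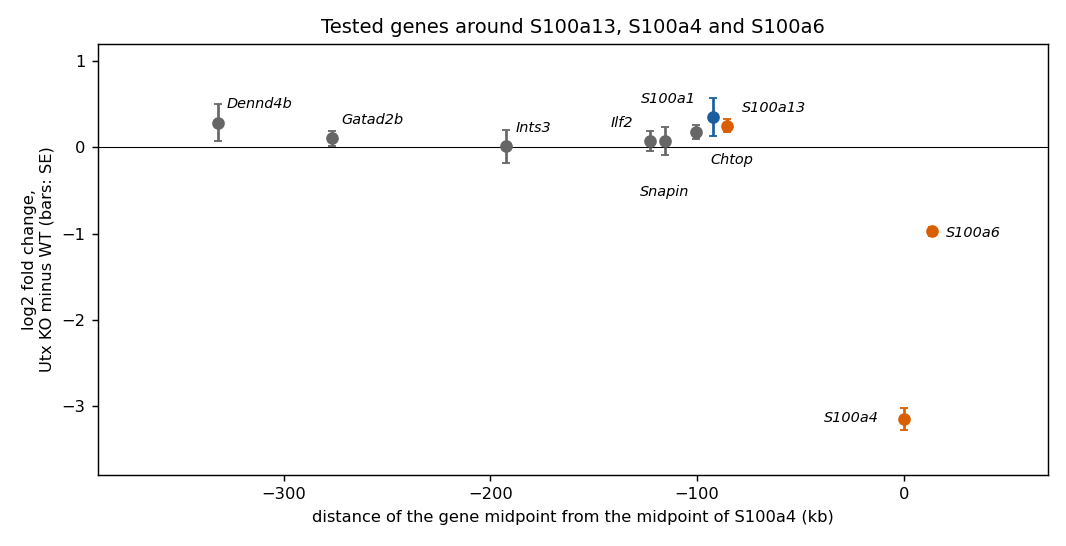
Fitted log2 fold change, Utx KO minus WT, with its SE (vertical axis) against the distance in kb between the midpoints of each tested gene and of S100a4 (horizontal axis). Members are orange, S100a1 blue and other genes grey; S100a4 (−3.15) and S100a6 (−0.97) lie below the line at 0, and the genes on their upstream side lie between 0.01 and 0.35.

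S100a10 and S100a11 form a second pair on chromosome 3, 2.90 Mb downstream of S100a6, and both were lower in Utx KO. S100a10 (ENSMUSG00000041959, chromosome 3, 93555080 to 93564643, plus strand) encodes p11, the light chain of the annexin A2 complex. It was at 325, 297 and 281 CPM in Utx KO against 413, 421 and 436 CPM in WT, without overlap (log2 fold change −0.49, SE 0.06). S100a11 (ENSMUSG00000027907, chromosome 3, 93520488 to 93526287, plus strand) was at 233, 254 and 271 CPM in Utx KO against 337, 309 and 355 CPM in WT (log2 fold change −0.40, SE 0.07). All of its Utx KO libraries were below all of its WT libraries, although 21.1% of its 3' end pieces also occur in the processed pseudogenes Gm12854 and Gm29240. No protein-coding neighbour within 250 kb of this pair was expressed highly enough to be tested.

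Among the annexins, Anxa6 and the rare Anxa1 were lower in Utx KO, while the genotypes overlapped for Anxa2, Anxa4 and Anxa5. Anxa2 (ENSMUSG00000032231, chromosome 9, 69453620 to 69491795, plus strand), which links membranes to actin and carries S100a10, was at 854, 821 and 884 CPM in Utx KO against 838, 851 and 933 CPM in WT. The groups overlapped, with a log2 fold change of −0.03 (SE 0.05) whose sign turned without WT replicate 3 (0.01). An antisense gene, Gm16144, overlaps exons of Anxa2 and has no identifier in the deposited values. None of the 3' end pieces of Anxa2 occurred in another gene on either strand. Reads of the overlap outside those ends cannot be told apart where strand is not counted. There were 0.353 ± 0.0320 S100a10 transcripts per Anxa2 transcript in Utx KO and 0.485 ± 0.0155 in WT (SD, n = 3 each), and each Utx KO library was below each WT library.

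Anxa6 (ENSMUSG00000018340, chromosome 11, 54979108 to 55033445, minus strand), a large annexin with a doubled core that recruits the Ras inhibitor Rasa1 to membranes, was at 664, 682 and 694 CPM in Utx KO against 831, 833 and 817 CPM in WT. The replicates of each genotype lay close together and the groups were well apart, for a log2 fold change of −0.28 (SE 0.05). Anxa5 (ENSMUSG00000027712, chromosome 3, 36448923 to 36475894, minus strand), best known as the protein that binds exposed phosphatidylserine on dying cells, was at 31.4, 36.0 and 39.5 CPM in Utx KO against 33.2, 32.7 and 35.02 CPM in WT. Anxa4 (ENSMUSG00000029994, chromosome 6, 86736840 to 86793584, minus strand) was at 17.5, 11.4 and 15.4 CPM in Utx KO against 12.7, 13.8 and 14.2 CPM in WT. Of the 3' end pieces of Anxa4, 4.01% also occur in Gm44036 on the opposite strand. Both overlapped between genotypes, and their log2 fold changes of 0.07 (SE 0.15) and 0.10 (SE 0.23) changed sign without Utx KO replicate 3 for Anxa5 (−0.001) and without Utx KO replicate 1 for Anxa4 (−0.03).

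Anxa1 (ENSMUSG00000024659, chromosome 19, 20373428 to 20390944, minus strand), a glucocorticoid-induced protein that signals through formyl peptide receptors, was the rarest of the 10, and 7.59% of the genes tested had a lower mean. It had 2, 0 and 1 reads in the Utx KO libraries against 13, 10 and 4 reads in the WT libraries. The ratio of pooled CPM, Utx KO over WT, was 0.123 (exact 95% counting interval 0.0239 to 0.400). Its log2 fold change of −1.75 (SE 0.44) became −3.26 with a pseudocount of 0.1 and −0.70 with 5. Anxa1 entered the test only through its WT libraries, so nothing is read from its being called, and the call did not hold with DESeq2, nor with WT replicate 1 or WT replicate 2 left out.

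**Figure D4:**
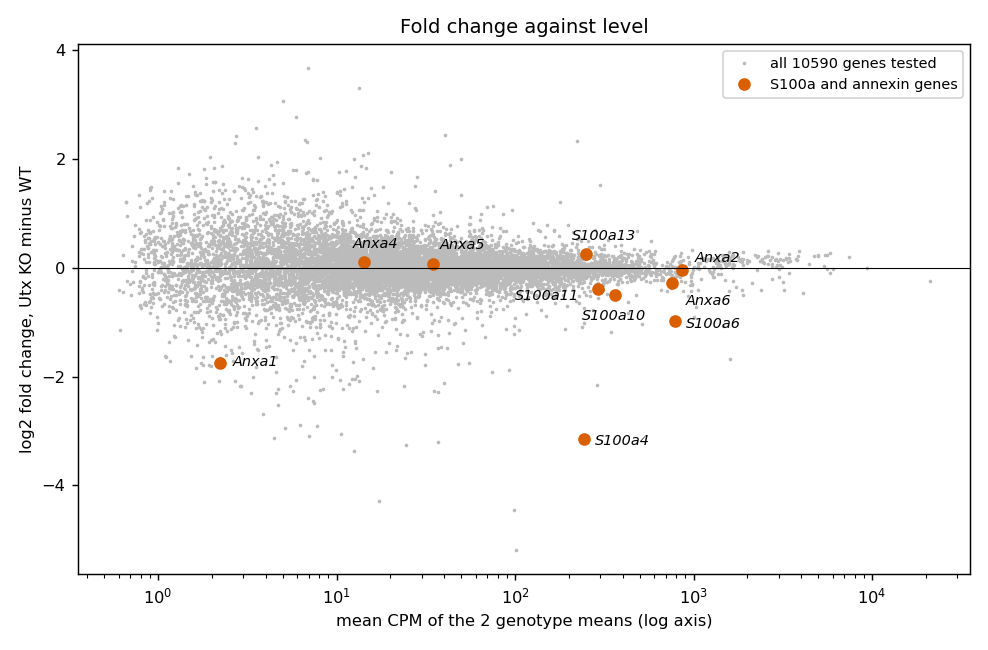
Fitted log2 fold change, Utx KO minus WT (vertical axis), against mean CPM on a log axis (horizontal) for the 10590 genes tested (grey) and the 10 S100a and annexin genes (orange, named). S100a4 lies at −3.15, while Anxa2 (−0.03), Anxa4 (0.10) and Anxa5 (0.07) sit close to 0.

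How far replicates of a genotype varied is given as a description. The SD between replicates was compared with the SD that counting alone would give at these depths. The ratio of the 2 had a median of 1.21 over the 20 values (10 genes, 2 genotypes) and exceeded 2 in 4 of them. These were S100a4 in Utx KO (2.71), S100a6 in WT (3.59), S100a13 in WT (2.09) and Anxa2 in WT (2.55). Among the WT libraries, 8 of the 10 genes were highest in replicate 3, all but Anxa1 and Anxa6. Whether this is particular to these genes or shared by most genes of that library was not tested. For Anxa6 the spread was below that of counting in both genotypes, at 0.795 in Utx KO and 0.443 in WT.

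Most other genes of both families were at or near 0 in these cells. Of 20 further genes listed, 19 had an identifier in the tables, and S100a7l2 was not analysed here. Of the 19, 8 were at 0 in all libraries (S100a7a, S100a8, S100a9, S100a16, S100z, Anxa8, Anxa10 and Anxa13). A further 6 had too few reads to be tested (S100a3, S100a5, S100a14, S100b, S100g and Anxa3), as had S100a2, which was not on the list. The 5 tested were S100a1, Anxa7, Anxa9, Anxa11 and S100pbp, which encodes a binding protein of S100P and is no S100 protein itself. None of these 5 passed with limma, edgeR or DESeq2, and 0 had an unadjusted limma p under 0.05. Over all 10590 genes tested, limma called 10.8%, and 2408 had an unadjusted limma p under 0.05. Among only 5 genes, 0 is near those shares. Anxa7 was at 19.4 ± 4.69 CPM in Utx KO and 24.5 ± 3.10 CPM in WT, and Anxa11 at 23.2 ± 5.14 CPM in Utx KO and 28.2 ± 4.59 CPM in WT (SD, n = 3 each). The groups of both genes overlapped, with log2 fold changes of −0.34 (SE 0.20) for Anxa7 and −0.28 (SE 0.19) for Anxa11, and limma gave adjusted p of 0.333 and 0.418. Anxa9 was at 3.42 ± 1.92 CPM in Utx KO and 4.62 ± 2.86 CPM in WT, and S100pbp at 88.9 ± 10.4 CPM in Utx KO and 87.6 ± 5.32 CPM in WT.

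Of the 25 listed binding partners and receptors of these proteins, 14 were tested, and 1 was called higher and 2 lower in Utx KO. That is 21.4%, beside 10.8% of all genes tested, and it counts Myh10, which entered the test only through Utx KO libraries. With a filter of 5 CPM, which left Myh10 untested, 2 of 13 were called, beside 1087 of all 8832 genes. The median log2 fold change of the 14 was −0.01 and that of all genes 0.01. This list, like the EF-hand, actin and membrane repair lists below, was chosen with earlier results of these data known. Its counts are therefore a description and carry no test. Ahnak, a giant scaffold held at the membrane by the S100a10 and annexin A2 complex, was at 98.9, 137 and 124 CPM in Utx KO against 267, 242 and 269 CPM in WT. All Utx KO libraries lay below all WT libraries (log2 fold change −1.12, SE 0.09, limma adjusted p = 7.28e-09), and its fall held in all 15 alternatives (adjusted p up to 3.03e-07). Myh9, the non-muscle myosin heavy chain that S100a4 binds, was at 450.4, 590.0 and 511 CPM in Utx KO against 582, 627 and 640.1 CPM in WT. The groups overlapped slightly (log2 fold change −0.26, SE 0.07, limma adjusted p = 0.0162). Leaving out Utx KO replicate 1 (adjusted p = 0.0963), WT replicate 2 (0.0753) or WT replicate 3 (0.0770) ended that call, and the lowest value over the alternatives was 0.00113.

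The gene called higher was the related myosin heavy chain Myh10, with 5.16, 5.14 and 4.94 CPM in Utx KO against 0, 0.922 and 0 CPM in WT, or 30 pooled reads in Utx KO and 2 in WT. It reached 1 CPM only in Utx KO and so entered the test only through those libraries, and nothing is read from its being called. The ratio of its pooled CPM, Utx KO over WT, was 16.6 (exact 95% counting interval 4.22 to 144). The S100a6 partners Cacybp (174 ± 14.7 CPM in Utx KO and 154 ± 14.1 CPM in WT) and Sugt1 (162 ± 6.60 CPM in Utx KO and 161 ± 7.75 CPM in WT; SD, n = 3 each) were not called (limma adjusted p = 0.211 for Cacybp and 0.964 for Sugt1). Rasa1, the Ras regulator bound by annexin A6, was at 211 ± 11.4 CPM in Utx KO and 217 ± 2.58 CPM in WT (limma adjusted p = 0.796). Sri and Pdcd6, penta-EF-hand partners of annexins A7 and A11, and Pef1, which dimerises with Pdcd6, had log2 fold changes of −0.09, −0.24 and 0.05 and were not called. Nor were Trp53, Ppfibp1, Hltf, Prkca and Bsg, with log2 fold changes of −0.29 (Hltf) to 0.16 (Bsg). Bsg was at 239.6 ± 5.15 CPM in Utx KO and 214 ± 7.49 CPM in WT (SD, n = 3 each), without overlap (limma adjusted p = 0.149). The formyl peptide receptors Fpr1 and Fpr2, through which annexin A1 signals, were listed at 0 in all libraries. So were Fgf1 and Il1a, whose release S100a13 assists.

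**Figure D5:**
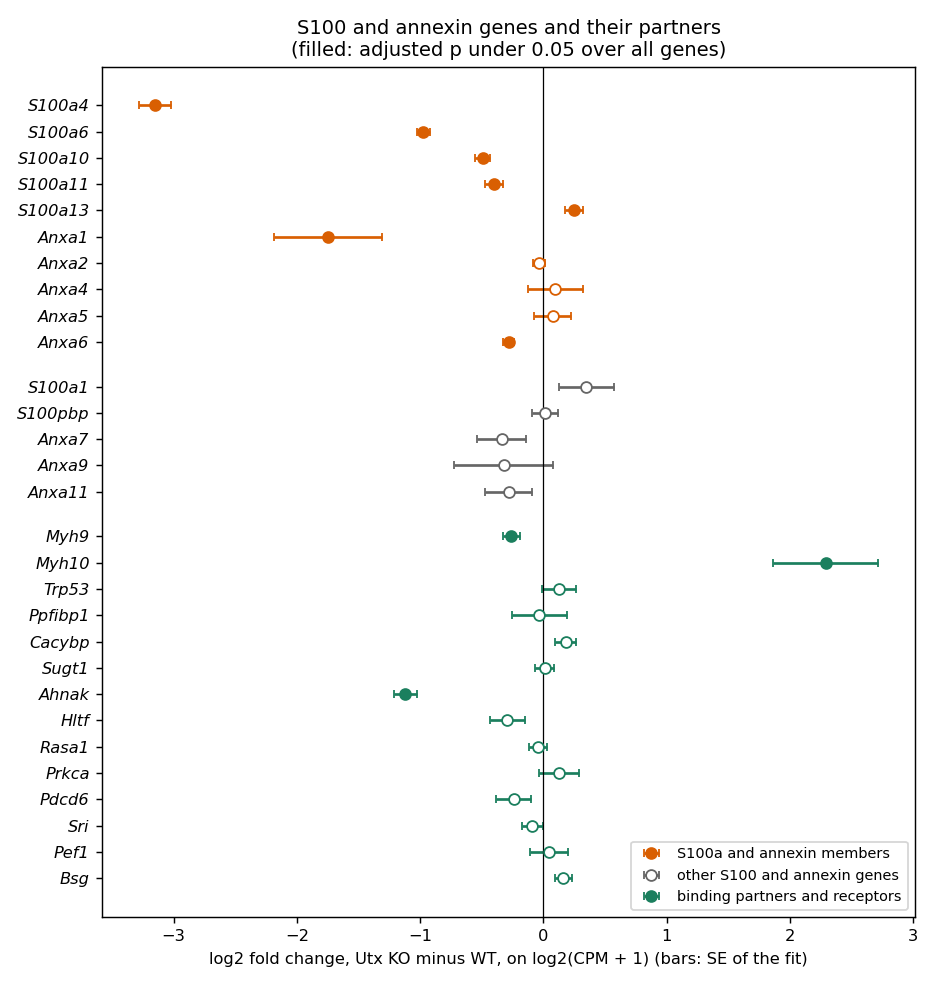
Fitted log2 fold change, Utx KO minus WT, with its SE (horizontal axis) for the 10 members (orange), the 5 other tested genes of the S100 and annexin list (grey) and the 14 tested partners and receptors (green). Filled points passed an adjusted p of 0.05 over all genes. S100a4 (−3.15), Anxa1 (−1.75) and Ahnak (−1.12) lie far left and Myh10 (2.29) far right. Anxa1 entered the test only through WT libraries and Myh10 only through Utx KO libraries. The grey genes, none of them called, lie between −0.34 and 0.35.

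Other EF-hand calcium-binding proteins gave 2 rises and 5 falls among 24 tested (29.2% called, beside 10.8% of all genes tested), with a median log2 fold change of −0.06. The actin bundler L-plastin (Lcp1) fell to 877 ± 29.7 CPM in Utx KO, against 1080.1 ± 23.9 CPM in WT, and the actin-binding Efhd2 to 104 ± 5.90 CPM in Utx KO, against 143 ± 11.5 CPM in WT (SD, n = 3 each; limma adjusted p = 5.1e-05 for Lcp1 and 0.00138 for Efhd2). Rcn3, a calcium-binding protein of the secretory pathway, rose to 16.5 ± 3.56 CPM in Utx KO, against 5.59 ± 2.29 CPM in WT (log2 fold change 1.44, limma adjusted p = 0.00105). Stim2 (−0.38, limma adjusted p = 0.0106) and Rcn1 (−0.39, limma adjusted p = 0.0402) also fell and Sdf4 rose (0.29, limma adjusted p = 0.0249). Stim2 was not called with DESeq2 (adjusted p = 0.0720) or without WT replicate 2 (0.0622), and its lowest value was 0.00884. Rcn1 was not called with DESeq2 (adjusted p = 0.188) or without Utx KO replicate 3 (0.179), WT replicate 1 (0.206), WT replicate 2 (0.0760) or WT replicate 3 (0.0640), and its lowest value was 0.0340. Sdf4 was not called with DESeq2 (adjusted p = 0.109) or without Utx KO replicate 1 (0.0516), Utx KO replicate 2 (0.132), WT replicate 1 (0.145) or WT replicate 2 (0.0677), and its lowest value was 0.0135.

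Genes of the actin cytoskeleton and motility gave 1 rise and 11 falls among 34 tested (35.3% called, beside 10.8% of all genes tested). Of the 34, 26 were fitted lower, beside 5189 of all 10590 genes tested, and their median log2 fold change was −0.10. Many of these genes are abundant, where smaller differences can be called (SE 0.03 for Actb). The share over all genes was not matched for level. Since this list too was chosen with earlier results of these data known, its counts carry no test. The gelsolin-family capping protein Capg fell to 41.4 ± 3.74 CPM in Utx KO, against 67.2 ± 3.80 CPM in WT (SD, n = 3 each; log2 fold change −0.69, limma adjusted p = 0.000381). Falls of abundant structural genes were small: Actb by 0.25 (limma adjusted p = 5.21e-07), Tpm3 by 0.23 and the intermediate filament gene Vim by 0.21 on the log2 scale. The focal adhesion protein Zyx fell to 58.6 ± 1.24 CPM in Utx KO, against 80.5 ± 2.16 CPM in WT. Myl6, a myosin light chain, was the 1 rise, at 1174 ± 18.6 CPM in Utx KO and 1034 ± 29.6 CPM in WT (log2 fold change 0.18, limma adjusted p = 0.00557).

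Membrane repair and ESCRT genes, which seal torn membranes together with annexins, gave 1 rise and 1 fall among 22 tested (9.09% called, beside 10.8% of all genes tested), with a median log2 fold change of 0.03. Capn2, the large subunit of a calcium-activated protease, fell to 78.1 ± 7.15 CPM in Utx KO, against 109 ± 4.52 CPM in WT (limma adjusted p = 0.00161). Smpd1, the acid sphingomyelinase, rose to 124 ± 17.4 CPM in Utx KO, against 82.3 ± 5.57 CPM in WT (SD, n = 3 each; limma adjusted p = 0.000371). The repair protein genes Dysf, Trim72 and Cav1 were listed at 0 in all libraries. The calls of Lcp1, Efhd2, Rcn3, Capg, Actb, Tpm3, Vim, Zyx, Myl6, Capn2 and Smpd1 held in all 15 alternatives.

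Around all 10 genes, 50 protein-coding genes outside both families lay within 250 kb. Of these 24 were tested and 1 passed (4.17%, beside 10.8% of all genes tested). This was Rora, which encodes a nuclear receptor and lies 65.4 kb upstream of Anxa2, at 71.4 ± 6.06 CPM in Utx KO and 54.0 ± 1.64 CPM in WT (SD, n = 3 each; log2 fold change 0.39, limma adjusted p = 0.0247). Rora was not called with DESeq2 (adjusted p = 0.167) or with any single library other than Utx KO replicate 2 left out (0.0517 to 0.110), and the lowest value over its 15 alternatives was 0.0221.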

How the data were processed

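Per the labels' protocols, 3' end libraries were made with a QuantSeq kit from 500 ng of total RNA of 3 Utx KO and 3 WT samples. The authors deposited CPM values for 25655 Ensembl identifiers in each library. Builds GRCm38 and mm10 stand in the submitters' processing notes. The aligner, counter, strand setting and any filter are unknown here. Each CPM value was a whole multiple of what 1 read is worth (100% of values, tolerance 0.001 reads), so read counts were recovered from the deposited values. Symbols were found for 25600 identifiers, and coordinates come from GENCODE M21.

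The fit was limma-trend (limma 3.58.1, R 4.3.3) on log2(CPM + 1), a two-sided comparison of the genotypes with no covariate, over the 10590 genes that reached 1 CPM in no fewer than 3 libraries, with Benjamini-Hochberg adjustment over all of them (threshold 0.05). Of these genes limma called 1142. On the recovered reads edgeR 4.0.16 called 1151 and DESeq2 1.42.0 called 595. Other alternatives were limma-voom, TMM scaling, other pseudocounts and filters, a replicate block and leaving out each library. All tests were tried on simulated counts with 200 changed genes. Replicates differed by more than counting alone gives, with a chi-square of 1.33 to 2.00 for each degree of freedom, and none was merged or dropped.

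The members and gene lists were chosen with earlier results of these data known. The text names all members, Kdm6a, the tested genes of both families and of the partner list, called neighbours and, from each other list, up to 6 called genes with the lowest adjusted p. Genes flanking the S100a cluster, Rcn1, single markers and genes listed at 0 were named after their values were seen. Some genes of these lists are not reported here. Promoter windows are from RefSeq (GRCm38.p6) and were found for 8 of the 10 members.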

Additional observations from a re-analysis of the deposited data

How the results depend on the processing

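The S100a sum (log2 ratio −0.81) ran from −0.84 to −0.76 and the annexin sum (−0.15) from −0.17 to −0.13 over their 7 alternatives. S100a4, S100a6, S100a10, S100a11 and Anxa6 were called lower under all 15 alternatives, so between 5 and 7 of the 10 genes were called. The count over all genes was 595 with DESeq2, and 754 (without WT replicate 2) to 1042 when 1 library was left out. Called neighbours numbered 2 with a pseudocount of 5, with edgeR, with limma-voom and with the replicate block, 0 with DESeq2, and 0 to 2 when 1 library was left out. Called EF-hand genes numbered 4 with DESeq2. Deviations of same-numbered libraries from their genotype means were uncorrelated (r −0.00963 to 0.00602 over 3 pairs). Counting noise makes up much of such deviations at these depths, so whether the samples were paired cannot be told from this. With the replicate block 1065 genes and the same 7 of the 10 members were called. TMM factors moved the median of all genes by under 0.1 on the log2 scale. Anxa1 could not be tested with a filter of 5 CPM. Depth limits what can be said of genes near the level of 3 reads (1.19 to 1.85 CPM), Anxa1 in Utx KO among them.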
